A study of Mus musculus with 6 samples.

Results

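Globin and primitive erythroid genes were followed across pancreatic progenitor libraries of WT and mir-302 KO mouse embryos. The group held 9 genes of the 55414 listed, and all 9 were among the 16353 genes with enough counts to be tested. It comprised the embryonic globins Hba-x, Hbb-y and Hbb-bh1, the adult-type globins Hba-a1, Hba-a2, Hbb-bs and Hbb-bt, the heme synthesis enzyme gene Alas2 and the membrane protein gene Slc4a1. The genes were selected on their weights on the first principal component of the libraries in an earlier look at the same data, that is, on how widely their levels varied between libraries. Their spread between libraries is therefore a description of that choice and was not tested.

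The study asked how loss of mir-302, a cluster of microRNAs of early embryos, alters pancreatic progenitors. Cells were sorted from the dissociated trunk of E10.5 embryos, 3 libraries from WT embryos (Pdx1-Cre+, Tdtomato+, miR-302WT) and 3 from KO embryos (Pdx1-Cre+, Tdtomato+, miR-302KO), and full-length cDNA was amplified from the sorted cells (SMART-seq v4). The libraries are called WT1 to WT3 and KO1 to KO3 after their replicate numbers. Both genotypes carried the Pdx1-Cre transgene and the Rosa26 tdTomato reporter and came from crosses between mir-302+/- parents, so that the deletion was present in every cell of a KO embryo, blood included. The Pdx1-Cre driver only decides which cells turn on tdTomato, and the labels do not say how many embryos went into a library or whether replicates came from separate embryos. The p-values below therefore measure the spread between these libraries, which may be technical.

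Primitive erythroid cells arise in the yolk sac, enter the circulation of the embryo as nucleated cells and are filled with hemoglobin, a tetramer of α-like and β-like globin chains around heme. In the mouse their embryonic chains are the α-like ζ chain (Hba-x) and the β-like εy (Hbb-y) and βh1 (Hbb-bh1) chains, made together with adult-type α chains, whereas definitive red cells of the fetal liver use adult-type chains of both kinds. The transcription factors Gata1 and Klf1 switch on the globin genes, Alas2 and much of the red cell membrane in this lineage.

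Upstream sequences were read from the RefSeq table of promoters for GRCm38.p6, which held 7 of the 9 genes and did not hold Hbb-bh1 and Slc4a1. The deposited counts were made on another build, GRCm39, and no position of that build is given. The sequences below are the 210 bases directly upstream of the start of each gene, 5′ to 3′ on the strand of the gene, and are shown because the genes had parallel levels across libraries. Capitals mark 4 motifs searched on both strands. They are GATAA, for the motif of Gata1 and its relatives, then CACCC, for that of Klf1 and its relatives, then CCAAT, known as a box of many promoters, and last TATAA, for the TATA box. The genes are Hba-x (chr11:32276390-32276599, plus strand), Hbb-y (chr7:103853208-103853417, minus strand), Hba-a1 (chr11:32283462-32283671, plus strand), Hbb-bs (chr7:103827929-103828138, minus strand) and Alas2 (chrX:150547207-150547416, plus strand).
Hba-x: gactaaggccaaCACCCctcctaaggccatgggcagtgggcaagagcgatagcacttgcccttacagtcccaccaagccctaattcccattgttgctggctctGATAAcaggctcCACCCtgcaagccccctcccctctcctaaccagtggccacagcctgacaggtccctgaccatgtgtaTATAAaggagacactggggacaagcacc
Hbb-y: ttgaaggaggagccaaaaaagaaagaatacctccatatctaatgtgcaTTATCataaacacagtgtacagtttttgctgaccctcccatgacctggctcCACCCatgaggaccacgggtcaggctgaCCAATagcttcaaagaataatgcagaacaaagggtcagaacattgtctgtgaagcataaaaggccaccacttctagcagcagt
Hba-a1: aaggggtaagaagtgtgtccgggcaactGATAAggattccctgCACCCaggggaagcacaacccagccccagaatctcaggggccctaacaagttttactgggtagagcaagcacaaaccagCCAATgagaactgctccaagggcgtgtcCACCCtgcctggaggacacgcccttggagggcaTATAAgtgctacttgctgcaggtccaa
Hbb-bs: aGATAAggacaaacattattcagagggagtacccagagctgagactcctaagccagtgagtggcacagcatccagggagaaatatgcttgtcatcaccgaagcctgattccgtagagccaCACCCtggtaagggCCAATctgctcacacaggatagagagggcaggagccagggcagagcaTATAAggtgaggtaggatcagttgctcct
Alas2: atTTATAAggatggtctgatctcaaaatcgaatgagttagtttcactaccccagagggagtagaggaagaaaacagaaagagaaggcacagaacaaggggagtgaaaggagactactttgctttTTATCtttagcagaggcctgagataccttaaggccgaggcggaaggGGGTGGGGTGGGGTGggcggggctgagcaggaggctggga

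In the 250 bases upstream, GATAA was present in 7 of 7 genes searched, against 22.6% of the 32851 promoters in the table. Its first base was at -107 from the start in Hba-x, at -182 in Hba-a1, at -209 in Hbb-bs and at -204 in Hbb-bt. In Hbb-y at -162 and in Alas2 at -86 it lay on the opposite strand. CACCC was also found in 7 of 7 genes, and in 52% of all promoters. CCAAT was found in 5 of 7 genes, with Hba-x and Alas2 as the exceptions, and in 33.8% of all promoters. TATAA was found in 6 of 7 genes, all but Hbb-y, and in 22.8% of all promoters. The match nearest the start began at -30 to -27 in Hba-x, Hba-a1, Hba-a2, Hbb-bs and Hbb-bt, but at -207 in Alas2. In Hbb-bt, CCAAT on one strand directly followed CCAAT on the other, and in Alas2 TATAA on the opposite strands overlapped. The stretch shown for Hba-a1 was found whole and without a mismatch in the entry for Hba-a2, which is therefore not printed. The counts of genes with a motif hold that stretch for both genes, so the 7 are not independent sequences. The motifs are matches of letters and do not show that a factor binds.

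The libraries held 17352498 to 26634523 counts each, enough that 3 counts, the most that a listed 0 allows for, stood for 0.112 to 0.171 CPM (counts scaled to the effective size of a library). Among markers of the labelled cell type, pancreatic progenitors, the transcription factor gene Pdx1 had 73.1 to 108 CPM. Sox9 had 178 to 259 CPM and the epithelial adhesion gene Epcam 356 to 581 CPM. Other markers of that list were low, with Ptf1a at 1.52 to 4.96 CPM and Nkx6-1 at 0.762 to 4.73 CPM. The purity of the sorted cells was not tested. The 7 globin genes together took 19, 51 and 329087 counts in WT1, WT2 and WT3 and 174452, 13 and 6242 counts in KO1, KO2 and KO3. WT3 and KO1 thus stood far above the rest, KO3 stood between, and the other 3 libraries each held fewer than 100 globin counts. As a share of all counts, globins took 1.59% in WT3, 0.655% in KO1 and 0.0334% in KO3. In bulk RNA, fewer cells of a type and less RNA per cell cannot be told apart. The labels name WT2 and KO1 with library names that differ in their last letter only, and these libraries held 51 and 174452 globin counts.

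**Figure D1:**
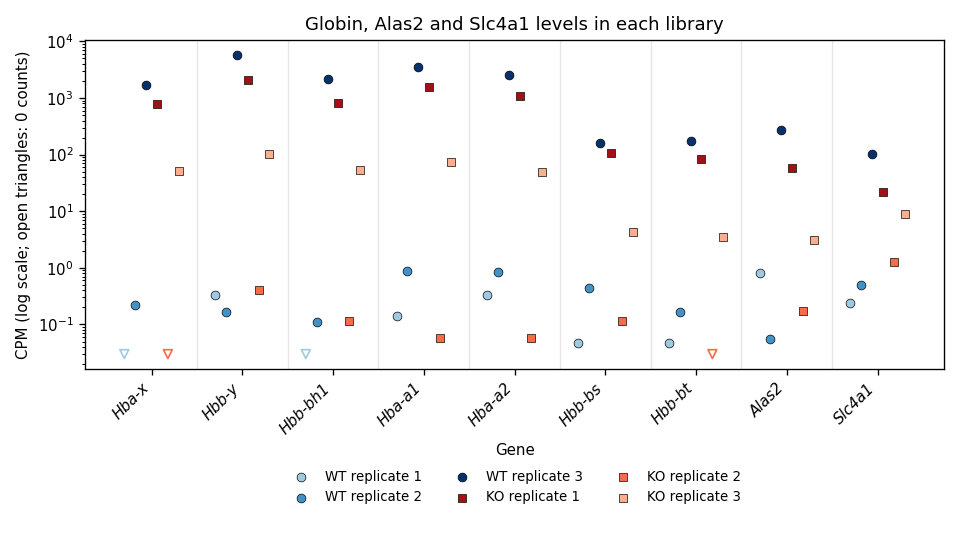
Level of the 9 genes in each library (CPM on a log axis), with WT libraries as circles and KO libraries as squares. WT3 and KO1 were the highest libraries for all 9 genes, and each genotype also held a library close to 0.

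The embryonic β-like gene Hbb-y, which encodes the εy chain, had 0.330, 0.168 and 5714 CPM in WT1, WT2 and WT3 and 2049, 0.399 and 104 CPM in KO1, KO2 and KO3. Its sister gene Hbb-bh1, which encodes βh1, had 0, 0.112 and 2160 CPM in WT and 823, 0.114 and 52.6 CPM in KO in the same order. Hba-x, the embryonic α-like gene, had 0, 0.223 and 1717 CPM in WT and 775, 0 and 51.0 CPM in KO. For all 3 embryonic genes, 1 WT library was the highest of the 6 and a KO library was second, so that the genotypes overlapped. Hbb-y in WT3 was 2.79 times KO1, which was in turn 19.6 times KO3. The fold between WT3 and KO1 was 2.63 for Hbb-bh1 and 2.22 for Hba-x.

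Means were 1905 ± 3299 CPM (SD, n = 3) in WT and 718 ± 1154 CPM (SD, n = 3) in KO for Hbb-y, so that the SD exceeded the mean in both genotypes. The log2 fold change of Hbb-y, KO over WT, was -1.41 with a standard error of 2.99 (adjusted p = 0.937, edgeR quasi-likelihood test). For Hbb-bh1 it was -1.30 ± 2.82 (SE, adjusted p = 0.938, edgeR), and for Hba-x -1.06 ± 2.76 (SE, adjusted p = 0.950, edgeR). None of the embryonic globins differed beyond the spread between libraries.

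The adult-type α genes encode the chains shared by embryonic and adult hemoglobin. Hba-a1 had 0.141, 0.894 and 3549 CPM in WT1, WT2 and WT3 and 1580, 0.0570 and 73.5 CPM in KO1, KO2 and KO3. Its near-identical copy Hba-a2 had 0.330, 0.838 and 2509 CPM in WT and 1085, 0.0570 and 50.1 CPM in KO. Both genes showed the order of libraries seen for the embryonic genes, with overlap between genotypes. Windows of 150 bases, the read length, were identical between their transcripts for 48.4% of Hba-a1 and 65.7% of Hba-a2, so the division of reads between this pair is uncertain. Mean levels in WT and KO were 1183 ± 2049 and 551 ± 892 CPM for Hba-a1 (SD, n = 3 each) and 837 ± 1448 and 378 ± 612 CPM for Hba-a2. The log2 fold changes were -1.10 ± 2.88 for Hba-a1 (SE, adjusted p = 0.950, edgeR) and -1.14 ± 2.78 for Hba-a2 (SE, adjusted p = 0.947, edgeR).

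The adult-type β genes Hbb-bs and Hbb-bt were much lower. Hbb-bs had 0.0471, 0.447 and 159 CPM in WT1, WT2 and WT3 and 107, 0.114 and 4.35 CPM in KO1, KO2 and KO3. Hbb-bt had 0.0471, 0.168 and 171 CPM in WT and 83.7, 0 and 3.54 CPM in KO. Hbb-bs had the smallest gap of all 9 genes between the top libraries, with WT3 at 1.48 times KO1, against 2.04 times for Hbb-bt. Their transcripts shared 58.7% of the windows of Hbb-bs and 50.7% of those of Hbb-bt, and no other pair of the 9 genes shared any, so the split between this pair is also uncertain. Mean levels in WT and KO were 53.1 ± 91.5 and 37.2 ± 60.6 CPM for Hbb-bs (SD, n = 3 each) and 56.9 ± 98.4 and 29.1 ± 47.3 CPM for Hbb-bt. The log2 fold changes were -0.50 ± 2.21 for Hbb-bs (SE, adjusted p = 0.971, edgeR) and -0.96 ± 2.28 for Hbb-bt (SE, adjusted p = 0.946, edgeR).

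Alas2 encodes the erythroid 5-aminolevulinate synthase, the first enzyme of heme synthesis. It had 0.801, 0.0559 and 268 CPM in WT1, WT2 and WT3 and 58.4, 0.171 and 3.05 CPM in KO1, KO2 and KO3. Slc4a1 encodes band 3, the anion exchanger that anchors the red cell skeleton, and had 0.236, 0.503 and 102 CPM in WT and 22.3, 1.25 and 8.87 CPM in KO. Between the top libraries both genes had wider gaps than any globin, WT3 being 4.59 times KO1 for Alas2 and 4.57 times for Slc4a1. Toward KO3 they parted, KO1 being 19.2 times KO3 for Alas2 but 2.51 times for Slc4a1. In the libraries low in globins the pair did not follow them, since WT1 held 17 counts of Alas2 beside 19 of all globins, and KO2 held 22 counts of Slc4a1 beside 13. Mean levels in WT and KO were 89.5 ± 154 and 20.5 ± 32.8 CPM for Alas2 (SD, n = 3 each) and 34.1 ± 58.4 and 10.8 ± 10.6 CPM for Slc4a1. The log2 fold change was -2.10 ± 2.24 for Alas2 (SE, adjusted p = 0.852, edgeR) and -1.65 ± 1.83 for Slc4a1 (SE, adjusted p = 0.859, edgeR).

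None of the 9 genes was called between genotypes by edgeR, where 0% of the 16353 genes tested were called at an adjusted p under 0.05. At an unadjusted p under 0.05, edgeR gave 0 of the 9 genes and 1700 of all genes. DESeq2 called 4.87% of the 14353 genes to which it gave an adjusted p, and 0 of the 9 genes. It gave a p to 1 of them only, Slc4a1, with an adjusted p of 0.947, and left the other 8 without one under its rule on counts with a large influence on the fit (Cook's distance). Levels of the genotypes did not overlap for 16.4% of genes tested, and overlapped for all 9 genes. The fitted fold change was below 0 for 9 of 9 genes with a median of -1.14, beside -0.02 over all genes tested, and this direction depended on WT3. Without that library the fold changes turned positive, from 4.91 for Slc4a1 to 12.35 for Hbb-bh1, and without KO1 they ran from -5.78 for Alas2 to -2.76 for Slc4a1. No gene was called in either fit.

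**Figure D2:**
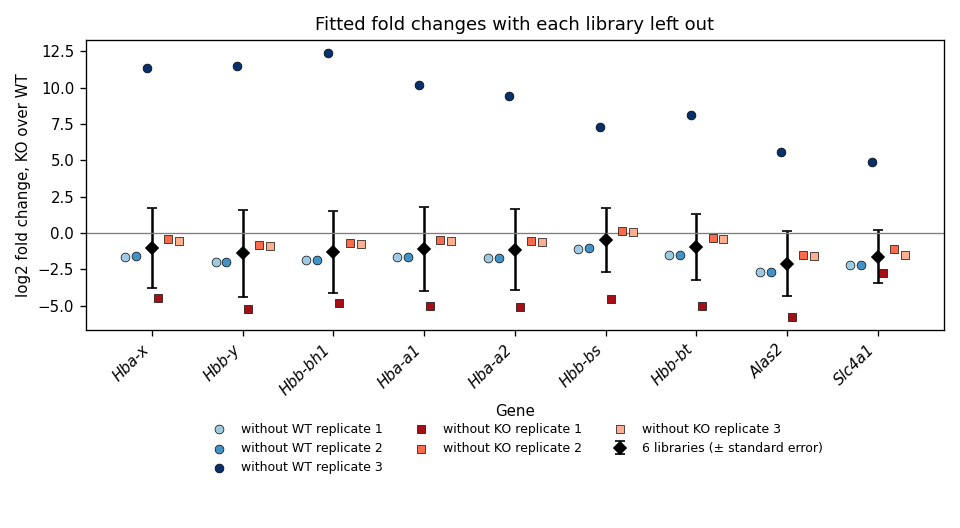
Fitted log2 fold change (KO over WT) of the 9 genes with all 6 libraries (diamonds, bars are standard errors) and with each library left out. The points without WT3 lie above 0 for all 9 genes, and those without KO1 are the lowest.

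The composition of globin RNA could be read in the libraries with enough counts. Intervals are exact 95% binomial intervals, which cover counting error only. They leave out how reads shared within the adult-type pairs were counted, which is not given. Leaving such reads uncounted would raise the embryonic shares. Embryonic genes made up 96.0% (95.9 to 96.1) of β-like counts in WT3, 93.8% (93.6 to 93.9) in KO1 and 95.2% (94.4 to 95.9) in KO3. Among α-like counts the embryonic gene Hba-x made up 22.1% (21.9 to 22.3), 22.5% (22.3 to 22.8) and 29.2% (27.7 to 30.8) in the same libraries. So most β-like RNA was embryonic and most α-like RNA was adult-type in all 3 libraries, of both genotypes. Divided by transcript length, the embryonic share was 96.2%, 94.0% and 95.4% of β-like RNA and 18.2%, 18.7% and 24.6% of α-like RNA.

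Within the β-like genes, Hbb-y took 69.7% of counts in WT3, 66.9% in KO1 and 63.3% in KO3. Hbb-bh1 took 26.3%, 26.9% and 31.9%, and its interval in KO3 (30.2 to 33.6) lay above those of the other two. Hbb-bs took 1.93%, 3.50% and 2.64% of β-like counts and Hbb-bt 2.08%, 2.73% and 2.14%. Within the adult-type α genes, Hba-a1 took 58.6%, 59.3% and 59.5%, shares within 1 percentage point of each other in libraries of both genotypes. As a share of embryonic β-like counts, Hbb-bh1 took 27.4% (27.2 to 27.7), 28.7% (28.3 to 29.0) and 33.5% (31.8 to 35.3). These intervals did not overlap, but all intervals here take counts as independent and leave out variation from cDNA amplification. The β-like genes took 51.3%, 47.1% and 48.6% of all globin counts, and 52.6%, 48.4% and 50.3% after division by transcript length. The genotypes were represented by 1 WT and 2 KO libraries here, so no test between genotypes was run.

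**Figure D3:**
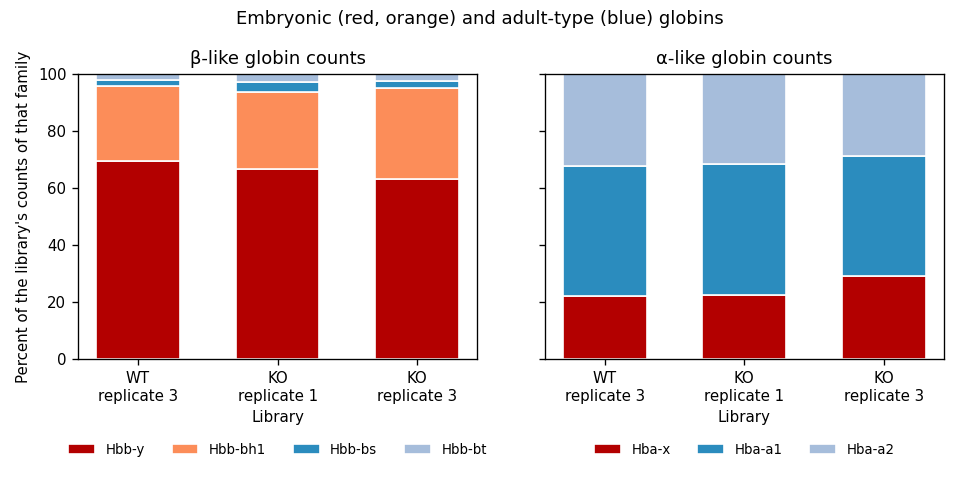
Share of each globin gene among the β-like and α-like globin counts of the 3 libraries with over 100 globin counts. Hbb-y and Hbb-bh1 fill most of the β-like bars, and Hba-a1 and Hba-a2 most of the α-like bars, in the WT library and both KO libraries.

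Per kilobase of transcript, Hbb-y was the highest of the 9 genes in WT3, at 9026 CPM per kb. Hba-a1 followed at 5077, Hba-a2 at 4529, Hbb-bh1 at 3524 and Hba-x at 2144 CPM per kb. Hbb-bs and Hbb-bt lay close together at 253 and 243 CPM per kb, an order that the shared reads leave uncertain, above Alas2 at 131 and Slc4a1 at 22.3 CPM per kb. The order of these 9 genes was the same in KO1, from Hbb-y at 3237 to Slc4a1 at 4.90 CPM per kb. The handling of reads shared within a pair is not given. If they were left uncounted, the adult-type globins are understated, so their places against the embryonic globins are also uncertain. In WT2 the scale was different, with Hba-a2 at 1.51 and Hba-a1 at 1.28 CPM per kb above Hbb-y at 0.265 CPM per kb, although each rested on at most 16 counts. Of the 51 globin counts of that library, 17.6% (8.40 to 30.9) were embryonic, against 60.0%, 56.1% and 61.3% in WT3, KO1 and KO3.

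The other genes of red cells were examined as 4 lists with 73 genes for heme synthesis and iron uptake, membrane and skeleton, enzymes and chaperones, and transcription factors and receptors. Of 64 genes tested, 28 (43.8%) had WT3 and KO1 as their highest libraries, beside 4.43% of all genes tested and 9 of 9 of the globin and primitive erythroid genes. By list this held for 7 of 18 heme and iron genes, 9 of 15 membrane genes, 5 of 13 enzyme genes and 7 of 18 transcription factor genes. The 9 genes were selected on their variation between these libraries, and the lists were chosen with earlier results known. These shares are therefore a description and were not tested. Between genotypes 0 of the 64 were called by edgeR, with 3 at an unadjusted p under 0.05 beside 1700 of the 16353 genes tested. DESeq2 called 3, all higher in KO, beside 4.87% called over all genes, where 606 of 699 calls were also higher in KO. Levels did not overlap for 12.5% of the 64, beside 16.4% of all genes tested. Their median log2 fold change was -0.18, beside -0.02 over all genes tested, with 44 of 64 lower in KO. The share of all genes lower in KO was not computed. Whether the direction of these genes depended on WT3 was not examined.

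Rhag, for the Rh-associated glycoprotein, had 0, 0 and 231 counts in WT1, WT2 and WT3 and 136, 0 and 8 counts in KO1, KO2 and KO3. Trim10 had 0, 0 and 392 counts in WT and 129, 0 and 10 in KO, and Hemgn, for the nuclear protein hemogen, 0, 0 and 256 and 310, 0 and 21. These genes were chosen after their values were seen, from 4 of the 72 list genes found. Those 4 had at most 3 counts in WT1, WT2 and KO2 and at least 100 in WT3 and KO1. Their likeness to the globins in these libraries was therefore fixed by the choice. KO3, which the choice did not use, lay between. The master regulator genes Gata1 and Klf1, whose products bind GATA and CACCC motifs, had 1, 15 and 200 and 11, 16 and 294 counts in WT. In KO they had 127, 2 and 31 and 314, 3 and 29 counts.

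Among the more abundant genes, Car2, which encodes a carbonic anhydrase, had 13.3, 9.22 and 170 CPM in WT1, WT2 and WT3 and 84.7, 24.2 and 16.1 CPM in KO1, KO2 and KO3. Blvrb, for biliverdin reductase B, had 4.90, 5.14 and 56.0 CPM in WT and 24.6, 5.24 and 7.18 CPM in KO. In contrast to the globins, both genes were well above 0 in WT1, WT2 and KO2. Gypc, Rhd, Ermap, Ube2l6, Nfe2, Gfi1b and Epor also had WT3 and KO1 as their highest libraries. Ermap had 30.2 CPM in WT3, 7.72 in KO1 and 0 to 1.74 in the other 4, and the erythropoietin receptor gene Epor had 13.2, 6.82 and 1.28 to 3.19 CPM. Hbq1b, a θ-globin gene too low to be tested, had 279 counts in WT3, 134 in KO1 and 2 or fewer in the rest. Cygb, the cytoglobin gene, had 0 to 0.534 CPM.

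Other erythroid genes departed from this order. Tfr2, a transferrin receptor gene, had 5.68 CPM in WT3 and 0.114 to 1.40 CPM elsewhere, and Steap3, a ferrireductase gene, had 2.82 CPM there and 0.285 to 1.04 elsewhere. Hebp1, for a heme-binding protein, had its lowest levels in WT2, at 0.615 CPM, and KO1, at 1.34 CPM, and 6.15 to 13.8 CPM in the others. Tspan33, a tetraspanin gene, had 1.93, 3.52 and 2.14 CPM in WT and 16.8, 15.2 and 7.51 CPM in KO, with no overlap. Its log2 fold change was 2.38 ± 0.38 (SE), with an adjusted p of 0.132 by edgeR and 2.36e-07 by DESeq2. The other genes called by DESeq2 were Cpox, a heme synthesis enzyme (adjusted p = 0.0005, DESeq2), and Klf3, a repressor of the Klf family (adjusted p = 8.47e-06, DESeq2), both without the globin order.

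**Figure D4:**
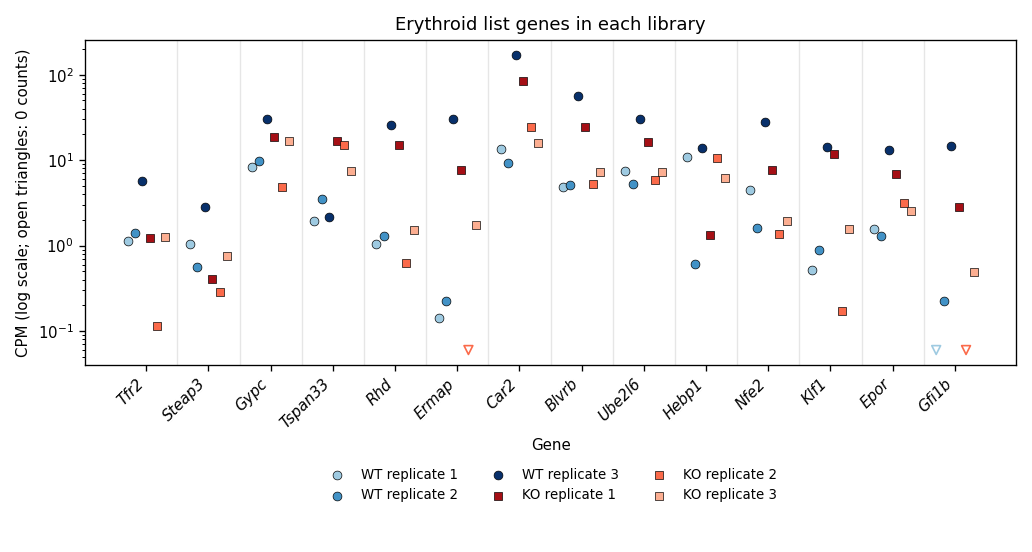
Levels of named erythroid list genes in each library (CPM on a log axis). Ermap, Klf1 and Gfi1b rank the libraries much as the globins do, and Tspan33 and Hebp1 do not.

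Set against the globins, the other red cell genes did not keep one ratio. Alas2 had 16.8 counts per 1000 globin counts in WT3, 8.98 in KO1 and 8.97 in KO3. Slc4a1 had 6.36, 3.42 and 26.1 in the same libraries. Rhag had 0.702, 0.780 and 1.28 per 1000. Klf1 had 0.893, 1.80 and 4.65, and Gata1 0.608, 0.728 and 4.97. The KO3 ratios of Klf1 and Gata1 rested on 29 and 31 counts, and WT2, with 51 globin counts, held 16 and 15. Car2 and Blvrb, which were also present in libraries with almost no globin counts, had 47.3 and 21.2 per 1000 in KO3 and at most 13.0 in the other two.

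Markers of other cell types were summed beside the globins. Macrophage markers totalled 2.23 to 11.5 CPM, highest in WT1, with Adgre1 at 0 in all libraries. Megakaryocyte and platelet markers totalled 2.64, 8.04 and 11.02 CPM in WT1, WT2 and WT3, with Gp1bb at 0 in all libraries. In KO1, KO2 and KO3 they totalled 4.99, 7.81 and 4.30 CPM. Tubb1 was the largest part in every library, at 1.36 to 6.84 CPM, highest in KO2. Itga2b had 2.18 CPM in WT3 and 0.141 to 1.09 CPM elsewhere. Endothelial markers totalled 94.4, 132 and 48.3 CPM in WT1, WT2 and WT3 and 133, 14.0 and 150 CPM in KO1, KO2 and KO3. Sox17 and Flt1 made up most of this sum in WT1, at 49.2 and 24.5 CPM. Sox17 alone had 49.2, 88.3 and 18.1 CPM in WT and 64.4, 0.342 and 108 CPM in KO. The low sums of WT3 and KO2 thus went with low Sox17, and other endothelial markers differed from the sum. Pecam1 had 0.340 to 2.35 CPM and Cdh5 0 to 0.708 CPM, so the sum was not taken as a level of endothelial cells. Tek was highest in WT3 and KO1, at 7.33 and 9.73 CPM, while Kdr had 11.3 CPM in KO1 and at most 1.23 elsewhere and Plvap 9.06 CPM in KO1 and at most 1.28 elsewhere. Mesenchymal markers totalled 675, 286 and 1307 CPM in WT and 1439, 132 and 1199 CPM in KO, highest in the 3 libraries with over 100 globin counts and lowest in KO2, where Col1a1 and Col3a1 had 0 counts. Hepatoblast markers totalled 1146 to 3076 CPM, neural markers 52.6 to 123 CPM with Sox1 and Olig2 at 0 in all, and pancreatic progenitor markers 2129 to 2802 CPM. The part of these cell types in the globin levels was not tested.

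The libraries were also compared by principal components over the 500 most variable genes. Component 1 held 48.15% of the variance, and the 9 genes carried 44.7% of its squared weights, which is the basis on which they were selected. Hbb-y ranked first by weight, followed by Hba-a1, Hba-a2, Hbb-bh1 and Hba-x, and Slc4a1 came in at rank 13. With the 9 genes and the erythroid lists left out, component 1 still held 47.5%, and WT3 and KO1 no longer lay together. Their scores were then 12.2 and -4.98, against 18.0 and 10.6 with all genes. The leading genes without the erythroid genes were Col3a1, Tnc and Col1a1, with positive weights. They had 411.8, 472.5 and 259.1 CPM in WT3 and 517.5, 213 and 190.2 CPM in KO1. Mtch1, Ppp2ca and Rnf187, also among the leading genes, had negative weights. They had 16.65, 28.21 and 42.87 CPM in WT3 and 167.5, 281 and 335.6 CPM in KO1.

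**Figure D5:**
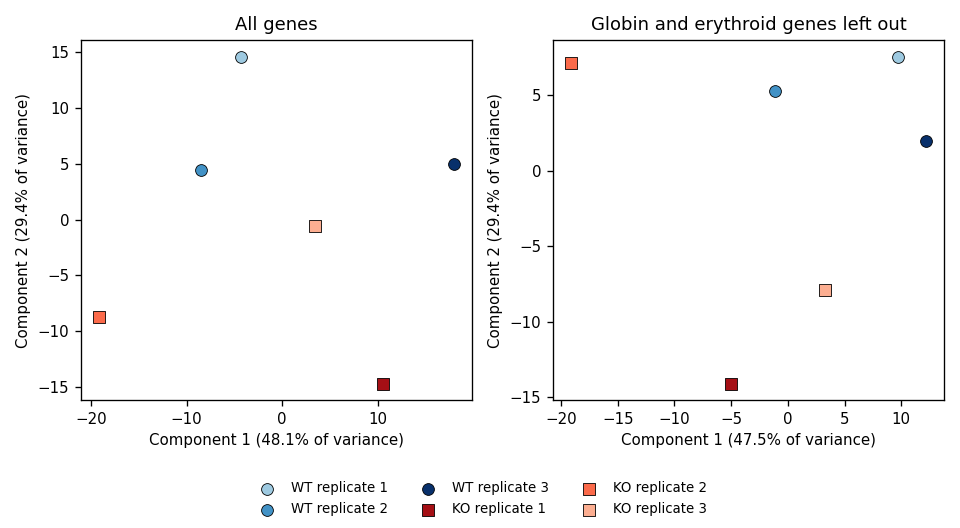
Scores of the 6 libraries on components 1 and 2, with all genes and with the globin, primitive erythroid and erythroid list genes left out. WT3 and KO1 lie on the same side of component 1 with all genes, and on opposite sides without those genes.

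Outside the lists, 63 of 5507 genes with a range of at least 1 on the log2 CPM scale had a Pearson r of at least 0.9 with the summed 9 genes over the 6 libraries. The libraries share depth and composition across genes, so r is a description only. The 10 most alike were Hapln1 (r = 0.993), Uba7 (0.990), Tgfb2 (0.982), Dok1 (0.980), Mcf2 (0.975), Adra2b (0.970), Chst7 (0.967), Hsd3b6 (0.962), Csgalnact1 (0.962) and Nexn (0.962). Uba7, which encodes the activating enzyme of the ISG15 modifier, and Hsd3b6, a steroid dehydrogenase gene, had the widest ranges of the 10. Uba7 had 0, 0 and 20.4 CPM in WT1, WT2 and WT3 and 4.92, 0 and 2.18 CPM in KO1, KO2 and KO3, and Hsd3b6 had 0.189, 0 and 28.2 CPM and 4.92, 0 and 1.25 CPM. The others varied over a far narrower range, such as Hapln1 with 2.73 to 7.23 CPM.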

How the data were processed

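Pdx1-Cre lineage cells were sorted by FACS from the trunk of E10.5 embryos, and mRNA was profiled in 6 libraries. The labels gave the genotype (3 libraries each) and the replicate number. Per the study's methods and the submitters' processing notes, the authors removed low-quality sequence, aligned with STAR to GRCm39, counted with GenomicAlignments and used DESeq2. They deposited whole-number counts per gene, without normalization. The gene annotation, strand setting, handling of reads shared between genes and tool versions are not given in the sources used here. Gene symbols were matched through the reference table for 94% of identifiers.

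Genotypes were compared on the deposited counts in R 4.3.3 with edgeR 4.0.16 (filterByExpr, then TMM, then glmQLFit and glmQLFTest), genotype being the sole term (prior degrees of freedom 3.26, residual 4). Each standard error is the absolute log2 fold change over the root of its F. DESeq2 1.42.0 was the alternative, on genes with at least 1 count. Both used Benjamini-Hochberg adjustment at 0.05. CPM values use the effective library sizes of the edgeR fit, and log2 CPM values a prior count of 2. Scripts were tested on simulated counts. Transcript lengths and shared windows came from GENCODE transcripts of GRCm38. Named genes were all 9 genes of the group, up to 4 genes per erythroid list with the highest mean CPM among those differing at least 5 times between libraries, and the 10 genes most alike outside the lists. The members and lists were chosen with earlier results of these data known.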

Additional observations from a re-analysis of the deposited data

How the results depend on the processing

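Leaving out 1 library at a time gave 0 to 217 genes called, the highest without WT2, against 0 with all libraries, and the globin and primitive erythroid genes gave 0 calls throughout. DESeq2 called 699 genes and edgeR without a filter on low counts 264. Of the alternative log2 fold changes of the 9 genes, KO over WT, 94 kept their direction, 8 of them from DESeq2 without a p, and 18 changed direction. Their lowest and highest values with 1 library left out, the lowest without KO1 and the highest without WT3, were -4.50 and 11.34 for Hba-x, -5.20 and 11.46 for Hbb-y, -4.78 and 12.35 for Hbb-bh1, -5.02 and 10.15 for Hba-a1, -5.07 and 9.40 for Hba-a2, -4.57 and 7.32 for Hbb-bs, -5.00 and 8.10 for Hbb-bt, -5.78 and 5.55 for Alas2 and -2.76 and 4.91 for Slc4a1. Hbb-bs was also above 0 without KO2 (0.11) and without KO3 (0.05). With WT3 and KO1 both left out, a choice made after seeing the data as was edgeR's newer spread estimate, the values were 6.21 for Hba-a1, 5.46 for Hba-a2, 1.90 for Alas2 and 3.80 for Slc4a1, the other 5 genes were too low to be tested, and 0 genes were called.

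With the replicate number as a block, 0 genes were called, and 3 of the 9 fold changes were above 0, at 1.40 for Hbb-y, 0.90 for Hbb-bh1 and 0.91 for Slc4a1. Deviations of libraries with the same number correlated at -0.21, 0.25 and 0.08, and KO1 correlated best with WT3 (0.34), so the numbers were not taken to pair the libraries. Counts per kilobase moved the embryonic share of β-like RNA to 96.2% in WT3 and 94.0% in KO1 and of α-like RNA to 18.2%, 18.7% and 24.6%. Rank correlation kept 2 of the 10 most alike genes. Component 1 held 47.5% without the erythroid genes and 52.1% on log2 CPM. The causes of these changes were not tested. With 3 libraries per genotype and 1 or 2 of them carrying nearly all erythroid counts, the standard errors of these genes were 1.83 to 2.99 on the log2 scale, and the smallest difference that could be detected was not computed.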
